A study of Danio rerio with 6 samples.

Results

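The heart specification genes described here are 7 protein-coding genes of the zebrafish, taken by name from the gene table: the GATA factors *gata4*, *gata5* and *gata6*, the transcription factors *hand2*, *tbx5a* and *tbx20*, and *nppa*, which encodes an atrial natriuretic peptide. All 7 were found among the 27018 mRNAs of that table, which lists 30111 genes, and all 7 entered each comparison. RNA was sequenced from whole embryos of the wild-type AB line, and 2 libraries were made for each of 3 stages, 6 in all: T1 was 10 hpf (hours post fertilization), T2 was 24 hpf and T3 was 36 hpf. T1 is the end of gastrulation, T2 lies in the pharyngula period when the heart is a beating tube, and at T3 the chambers take shape. The 100 embryos of a stage were divided at random between its libraries. No source says that these came from separate clutches, so the distance between the libraries of a stage may be technical. A p value here reflects that distance in the gene itself and in other genes of similar level.

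In the zebrafish, heart precursors lie in the lateral mesoderm on both sides of the embryo at the end of gastrulation, migrate to the midline and fuse into a tube, which then loops and divides into an atrium and a ventricle. GATA factors and Hand2 act early, in the specification and growth of the precursors. T-box factors act beside them and later in the shaping of the chambers, and natriuretic peptide genes are switched on in chamber muscle. Most of these regulators also work elsewhere: the GATA genes in endoderm and gut, *hand2* in pharyngeal arches, fin buds and sympathetic neurons, *tbx5a* in the pectoral fin field and the eye, and *tbx20* in motor neurons. In RNA from whole embryos, fewer cells of a type and less RNA per cell cannot be told apart.

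Levels are given in RPKM, a read number scaled to exon length and to the total of reads in genes of the library. The reads in genes ranged between 43611332 and 51846237 over the libraries. Differences were tested with limma on log2(RPKM + 0.5) across all mRNAs, with Benjamini-Hochberg adjustment, and a gene was called, that is rose or fell, at an adjusted p under 0.05 and an absolute log2 fold change above 1. The added 0.5 shrinks the changes of genes with low levels. With 2 libraries against 2, an exact two-sided permutation test of a single gene cannot go below a p of 0.333. The T1 libraries differed more from each other than those of T2 or T3, as the log2 difference between the libraries had an SD across mRNAs of 0.42 (T1), 0.21 (T2) and 0.19 (T3). The stage labels were checked with markers. The tailbud genes *tbx16*, *her1* and *msgn1* fell in all 3 comparisons, and the embryonic globin gene *hbbe3* and the muscle myosin gene *myhz1.1* rose at T2 against T1.

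The genes were sorted into 3 groups by their course. The 3 GATA genes were high at T1 and fell at T2 against T1, *hand2* and *tbx20* had their lowest levels at T2, and *tbx5a* and *nppa* were close to absent at T1. The later course of these last genes differed: between consecutive stages *tbx5a* rose at T2 against T1 and *nppa* at T3 against T2. Of the 7 genes, 1 rose and 4 fell at T2 against T1, where 12.8% of 23028 tested mRNAs rose and 3.45% fell. At T3 against T2, 1 rose and 0 fell, against 4.03% and 2.11% of 23161 mRNAs. At T3 against T1, 2 rose and 3 fell, against 17.2% and 8.76% of 23133 mRNAs. The median log2 fold change of the 7 genes was -1.03, 0.31 and -0.67 in these comparisons, and that of all tested mRNAs was 0.08, -0.08 and 0.01. The adjusted p values at T3 against T2 given below depended on the fit. With all 6 libraries in the limma fit they were 0.0759 (*gata4*), 0.0933 (*gata5*), 0.236 (*gata6*), 0.0660 (*hand2*), 0.296 (*tbx5a*), 0.0867 (*tbx20*) and 0.00140 (*nppa*). Only that of *nppa* was then under 0.05. Without either T2 library 0 of the 7 genes were called at T2 against T1 (limma, adjusted p values of the 5 genes between 0.0532 and 0.145). The spread in these fits came from the T1 libraries alone, and the log2 fold changes moved little, to -1.60 and -1.61 for *gata4*, -1.85 and -1.79 for *gata5*, -1.43 and -1.24 for *gata6*, -1.04 and -1.02 for *hand2* and 1.86 and 1.93 for *tbx5a* without T2 replicate 1 and without T2 replicate 2.

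**Figure D1:**
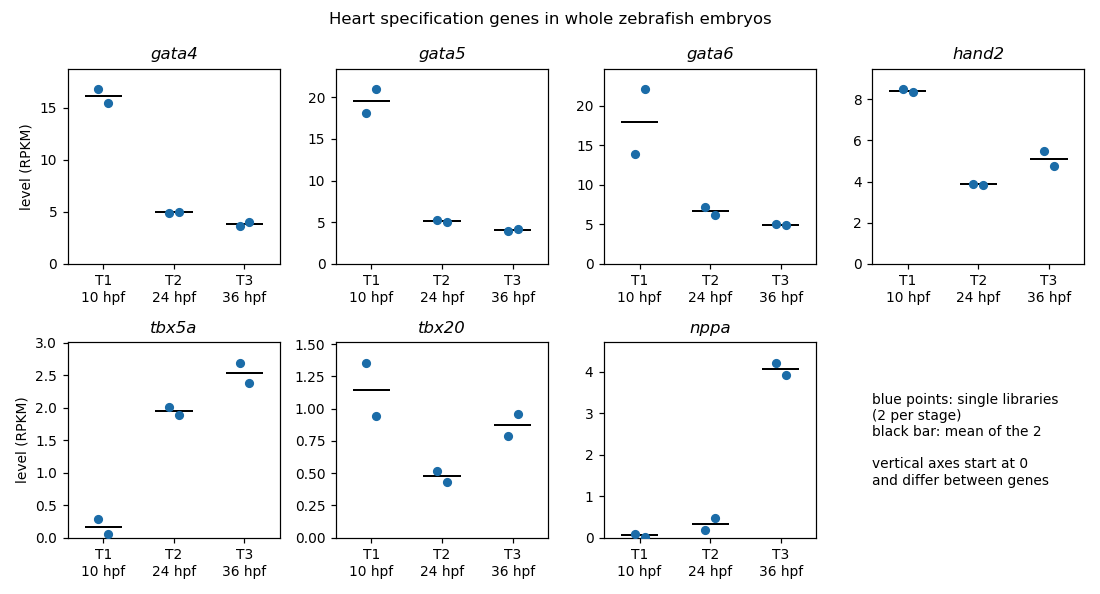
Levels of the 7 heart specification genes in RPKM (vertical axes, each starting at 0) at T1, T2 and T3 (horizontal axes). Points are single libraries and bars the mean of the 2 libraries of a stage. The GATA genes are highest at T1, *tbx5a* and *nppa* are highest at T3, and *hand2* and *tbx20* are lowest at T2.

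*gata4* (chromosome 20, 52952188 to 52967878 of GRCz11, minus strand, 6 exon blocks) encodes a zinc finger factor needed for heart tube and gut development. Its level was 16.8 and 15.5 RPKM (both T1 libraries), 4.92 and 4.97 (T2), 3.64 and 4.05 (T3). The stages did not overlap. *gata4* fell at T2 against T1, with a log2 fold change of -1.61 (SE 0.118, limma, adjusted p = 0.00172), and at T3 against T1, with -1.93 (SE 0.121, adjusted p = 0.000601). The difference at T3 against T2, -0.33 (limma, adjusted p = 0.0229), was short of the size needed for a call.

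*gata5* (chromosome 23, 7379800 to 7391000, plus strand, 7 exon blocks) is required in zebrafish for endoderm and for heart precursors. It had 18.1 and 20.9 RPKM (T1), 5.29 and 5.03 (T2), 3.92 and 4.15 (T3). As for *gata4*, each stage lay below the one before it without overlap. The fall at T2 against T1 was -1.82 on the log2 scale (SE 0.130, limma, adjusted p = 0.00163), and that at T3 against T1 was -2.14 (SE 0.126, adjusted p = 0.000532). The log2 fold change at T3 against T2, -0.32 (limma, adjusted p = 0.020), was not called.

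*gata6* (chromosome 2, 4207028 to 4217877, plus strand, 8 exon blocks), which acts with *gata5* in heart muscle and endoderm, had 13.95 and 22.1 RPKM (T1), 7.14 and 6.19 (T2), 5.03 and 4.88 (T3). The stages did not overlap, but the T1 libraries were further apart from each other than those of *gata4* and *gata5*. Their log2 difference of -0.64 was larger in size than that of 89.1% of mRNAs at T1. *gata6* fell by 1.34 on the log2 scale at T2 against T1 (SE 0.239, limma, adjusted p = 0.0138) and by 1.73 at T3 against T1 (SE 0.234, adjusted p = 0.00419). The call at T3 against T1 was lost without either T3 library (limma, adjusted p = 0.0644 without T3 replicate 1 and adjusted p = 0.0674 without T3 replicate 2, log2 fold changes -1.75 and -1.71). It had -0.39 at T3 against T2 (limma, adjusted p = 0.0144), without a call.

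The sum of the 3 GATA genes was 48.8 and 58.5 RPKM (T1), 17.3 and 16.2 (T2), 12.6 and 13.1 (T3). The make-up of that sum moved less than its size. *gata5* held 37.1% and 35.8% of it (T1), 30.5% and 31.0% (T2), 31.2% and 31.7% (T3). *gata4* held 34.3% and 26.4% (T1), 28.4% and 30.7% (T2), 28.9% and 31.0% (T3). *gata6* held 28.6% and 37.8% (T1), 41.2% and 38.2% (T2), 39.9% and 37.3% (T3). For *gata5* both T1 shares lay above all later ones. For *gata4* the T1 shares lay on both sides of the later ones, and for *gata6* T1 replicate 1 lay below all later shares and T1 replicate 2 among them.

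*hand2* (chromosome 1, 38193147 to 38195012, minus strand, 2 exon blocks) encodes a basic helix-loop-helix factor that sets the number of heart muscle cells. Its level was 8.48 and 8.37 RPKM (T1), 3.90 and 3.84 (T2), 5.47 and 4.75 (T3). The T3 libraries lay between those of the other stages without overlap. *hand2* fell at T2 against T1 with a log2 fold change of -1.03 (SE 0.122, limma, adjusted p = 0.00482), close to the size threshold of 1. With a pseudocount of 1 it was -0.95 and not called. At T3 against T2 *hand2* was at 0.36 (SE 0.0923, limma, adjusted p = 0.0217) and at T3 against T1 at -0.67 (SE 0.125, adjusted p = 0.0105), both short of the size for a call. The log2 fold change at T3 against T1 was -1.02 and called when each library was centred on its median.

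*tbx20* (chromosome 16, 42505025 to 42523910, minus strand, 8 exon blocks), a T-box factor of the heart fields and of motor neurons, had 1.35 and 0.942 RPKM (T1), 0.517 and 0.432 (T2), 0.791 and 0.955 (T3). The T2 libraries lay below the others, and those of T3 and T1 overlapped. The log2 fold change at T2 against T1 was -0.75 (SE 0.193, limma, adjusted p = 0.0364), which is not a call. Counted in reads, *tbx20* had 290 over both T2 libraries and 638 over both T1 libraries, a ratio of 0.416 after scaling to the reads in genes (95% counting interval 0.361 to 0.478). This interval covers counting error only, and without single libraries the ratio ranged from 0.352 to 0.504. *tbx20* was called lower at T2 with a pseudocount of 0.1 (-1.10), after quantile normalization (-1.12), after median centring (-1.08) and with limma voom on recovered reads (-1.25). It was not called with a pseudocount of 1 (-0.54) or with centring on features of at least 1 RPKM in all 6 libraries (-0.76). A filter of 1 RPKM in 2 of 4 libraries left it untested. Without single libraries the log2 fold change ranged from -0.93 to -0.57. The log2 fold change was 0.49 at T3 against T2 (limma, adjusted p = 0.0202) and -0.25 at T3 against T1 (adjusted p = 0.301), without calls. The stage means of *hand2* and *tbx20* had the same order, but only those of *hand2* stood apart at all 3 stages.

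*tbx5a* (chromosome 5, 72264163 to 72303894, minus strand, 10 exon blocks), which is needed for heart looping and for the pectoral fin, had 0.286 and 0.0510 RPKM (T1), 2.01 and 1.88 (T2), 2.68 and 2.39 (T3). These levels came from 27 and 5 reads (T1), 213 and 197 (T2), 287 and 268 (T3). The stages did not overlap, and T1 replicate 1 held most of the T1 reads. *tbx5a* rose at T2 against T1 with a log2 fold change of 1.89 (SE 0.223, limma, adjusted p = 0.00487) and at T3 against T1 with 2.20 (SE 0.218, adjusted p = 0.00176). With a pseudocount of 0.1 these were 3.08 and 3.45, and with limma voom on recovered reads 3.95 and 4.32. The ratio of reads, scaled to the reads in genes, was 11.7 at T2 against T1 (95% counting interval 8.17 to 17.4) and 15.2 at T3 against T1 (10.7 to 22.5). These intervals cover counting error only, and the ratios rested on the T1 libraries: without single libraries they ranged from 6.81 to 38.2 at T2 against T1 and from 8.86 to 49.7 at T3 against T1. *tbx5a* had a log2 fold change of 0.31 at T3 against T2 (limma, adjusted p = 0.0479), without a call.

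*nppa* (chromosome 8, 48613033 to 48617665, plus strand, 2 exon blocks) had 0.0843 and 0.0271 RPKM (T1), 0.175 and 0.483 (T2), 4.20 and 3.92 (T3). The reads behind these levels were 6 and 2 (T1), 14 and 38 (T2), 338 and 332 (T3). The T3 libraries lay far above the rest, and those of T2 differed from each other by more than 97.3% of mRNAs did at that stage. *nppa* rose at T3 against T2 with a log2 fold change of 2.48 (SE 0.183, limma, adjusted p = 0.000212) and at T3 against T1 with 3.04 (SE 0.144, adjusted p = 0.000350). At T2 against T1 it was 0.55 (SE 0.204, limma, adjusted p = 0.0891), without a call. The ratio of scaled reads was 12.4 at T3 against T2 (95% counting interval 9.33 to 16.7), 73.6 at T3 against T1 (37.1 to 171) and 5.94 at T2 against T1 (2.80 to 14.5). Without single libraries these ratios ranged from 8.41 to 23.2, from 48.1 to 149.9 and from 3.18 to 12.1 in that order. With limma voom on recovered reads the log2 fold changes were 3.77 at T3 against T2 and 6.20 at T3 against T1.

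**Figure D2:**
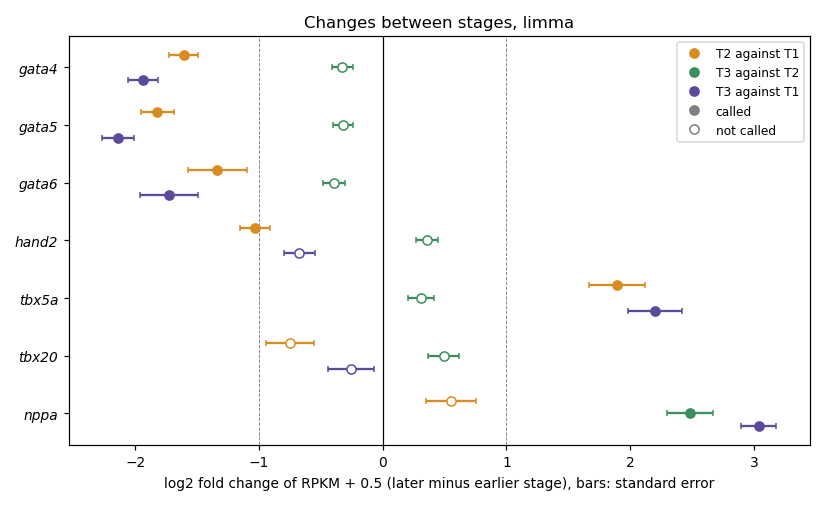
Log2 fold changes of RPKM + 0.5 (horizontal axis, later minus earlier stage) of the 7 genes (vertical axis) in the 3 comparisons, with standard errors as bars. Filled points were called and open points were not, and dashed lines mark the size threshold of 1. The GATA genes lie between -1.34 and -1.82 at T2 against T1 and between -0.32 and -0.39 at T3 against T2, where *nppa* is at 2.48.

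RPKM is scaled to exon length, so the levels of the genes were set beside each other within a stage. The exon lengths were those of the gene table, from 1142 bases for *gata4* to 6281 for *tbx20*. Which part of them was transcribed in these embryos was not tested, and the order of the genes depends on it. At T1 the order of means was *gata5* (19.5 RPKM), *gata6* (18.01), *gata4* (16.1), *hand2* (8.43), *tbx20* (1.15), *tbx5a* (0.168) and *nppa* (0.0557). The libraries of *gata6* overlapped with those of both other GATA genes, and those of *tbx5a* with *nppa*. At T2 it was *gata6* (6.67 RPKM), *gata5* (5.16), *gata4* (4.95), *hand2* (3.87), *tbx5a* (1.95), *tbx20* (0.475) and *nppa* (0.329), with overlap between the last 2 of them. At T3 *hand2* (5.11 RPKM) and *gata6* (4.95) overlapped at the top, *nppa* (4.06), *gata5* (4.04) and *gata4* (3.85) followed with overlap, and *tbx5a* (2.53) and *tbx20* (0.873) came last. The ratio of *tbx5a* to *gata4* was 0.0170 and 0.00330 (T1), 0.408 and 0.379 (T2), 0.738 and 0.588 (T3). The GATA genes and *hand2* thus stood well above the others at T1, and at T3 all but *tbx20* lay between 2.39 and 5.47 RPKM in each library.

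The GATA genes and *hand2* had another course than the markers of heart muscle, whereas *tbx5a*, like the markers, was low at T1 and rose at T2 against T1. Of the markers of heart muscle, *myl7* and *cmlc1* encode myosin light chains, *vmhc* and *myh6* the ventricular and atrial myosin heavy chains, and *tnnt2a* cardiac troponin T. Their summed level was 3.68 and 0.882 RPKM (T1), 135 and 141 (T2), 114 and 104 (T3). At T1 *tnnt2a* was the largest part of it, with 3.18 and 0.387 RPKM, and the other 4 were between 0.0479 and 0.221 RPKM in each library. *gata4*, *gata5*, *gata6* and *hand2* thus had their highest levels at the stage at which *myl7*, *vmhc*, *myh6* and *cmlc1* were near 0. The level of *gata4* was 3.65% and 3.54% of the marker sum at T2 and 3.21% and 3.89% at T3, and that of *gata5* 3.93% and 3.58% (T2), 3.46% and 3.98% (T3). For *gata6* these values were 5.30% and 4.41% (T2), 4.43% and 4.68% (T3). They were higher at T3 than at T2 for *hand2*, with 2.89% and 2.73% (T2), 4.82% and 4.55% (T3). The same held for *tbx20*, with 0.384% and 0.308% (T2), 0.696% and 0.916% (T3), and for *tbx5a*, with 1.49% and 1.34% (T2), 2.36% and 2.29% (T3). The *nppa* level was 0.130% and 0.343% of the marker sum at T2 and 3.70% and 3.76% at T3. The marker sum was lower at T3 than at T2, but *myh6* was higher, with 11.0 and 10.8 RPKM at T3 against 7.58 and 8.46 at T2. Whether the heart or another tissue holds the RNA of each regulator was not tested.

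**Figure D3:**
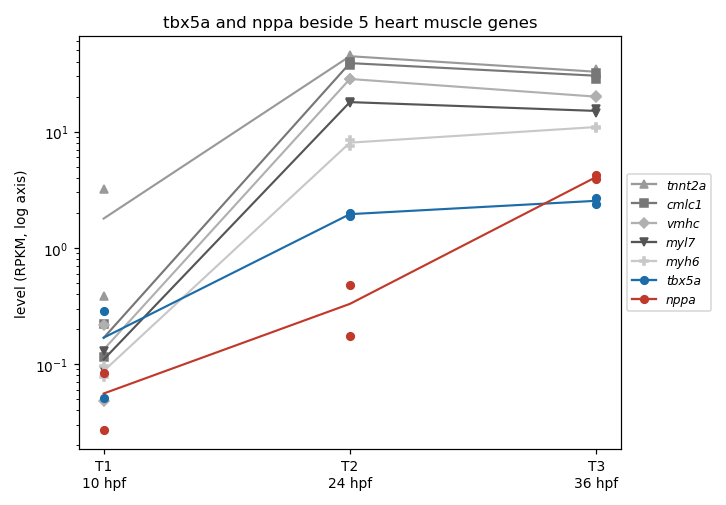
Levels of *tbx5a* and *nppa* (coloured) and of 5 heart muscle markers (grey) in RPKM on a log axis at T1, T2 and T3. Points are single libraries and lines join stage means. The markers reach their T2 levels, 8.02 RPKM for *myh6* to 44.5 RPKM for *tnnt2a*, while *nppa* is still at 0.329 RPKM.

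The 2 T1 libraries differed in several of these genes at once. T1 replicate 1 had more *tbx5a*, *tbx20*, *nppa* and *gata4* than T1 replicate 2 and less *gata5* and *gata6*. *hand2* was at 8.48 and 8.37 RPKM, and the *nppa* levels rested on 6 and 2 reads. The heart muscle markers were split. *tnnt2a* and *vmhc* were higher in T1 replicate 1, and *myl7*, *myh6* and *cmlc1* were lower there. This library also had less of the tailbud gene *tbx16*, 11.1 against 15.4 RPKM, and more *mef2ca*, 3.42 against 1.21 RPKM, whereas *msgn1* was at 35.2 and 37.4 RPKM. Without either T1 library the same 5 of the 7 genes were called at T2 against T1 and the same 5 at T3 against T1. Without T1 replicate 1 the log2 fold change of *tbx5a* at T2 against T1 was 2.15, and without T1 replicate 2 it was 1.64, both called.

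The same comparisons were read in 9 lists of other genes that work in the heart or in the other tissues where these regulators act, with 123 of 125 listed genes found. Over these lists 63 genes were called at T2 against T1 (40 higher, 23 lower), 14 at T3 against T2 (8 higher, 6 lower) and 74 at T3 against T1 (45 higher, 29 lower). Each list is to be read against the shares of all mRNAs that rose and fell, 12.8% and 3.45% at T2 against T1, 4.03% and 2.11% at T3 against T2 and 17.2% and 8.76% at T3 against T1. At T2 against T1 only 9 were called without T2 replicate 1 and 0 without T2 replicate 2, and at T3 against T1 49 without either T3 library.

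Among 21 other cardiac transcription factors, 3 rose and 2 fell at T2 against T1, with a median log2 fold change of 0.33, 1 rose and 1 fell at T3 against T2, and 5 rose and 3 fell at T3 against T1. The share that rose at T2 against T1, 14.3%, was close to the 12.8% of all mRNAs, and the 9.52% that fell stood beside 3.45%. *nkx2.7*, an Nkx2 homeobox gene of the heart field, was also highest at T1, with means of 10.8 RPKM at T1, 2.81 at T2 and 1.62 at T3, and fell by 2.41 on the log2 scale at T3 against T1. Its relative *nkx2.5* stayed low, at 0.379, 0.624 and 0.464 RPKM, and was not called. The exon blocks of the *nkx2.5* entry had positions from 209458 to 24244034. Its chromosome, 14, was read from the first block only, so these positions may belong to more than 1 sequence. Its levels may thus not be those of a single locus, which limits the comparison with *nkx2.7*. Positions were also spread widely for other named genes, such as *apela*, *wnt11*, *hnf1ba*, *fabp2*, *onecut1*, *th*, *fn1a* and the marker *hbbe3*. The same limit applies to the levels of such genes. The muscle factor genes *mef2ca* and *mef2cb* rose at T2 against T1, with log2 fold changes of 3.89 and 2.43, and *mef2ca* fell by 1.07 at T3 against T2. Both Mef2 genes are also expressed in skeletal muscle. *irx4a*, of an Iroquois gene family with a ventricle marker in mouse, rose at T3 against T2 by 1.49, like *nppa* with most of its level reached at T3: its means were 0.0574, 0.308 and 1.75 RPKM. *tbx5b*, the paralog of *tbx5a*, was at 0.0933, 0.430 and 0.320 RPKM at T1, T2 and T3 and was not called. *zfpm2b*, which encodes a cofactor of GATA proteins, rose at T3 against T1 by 1.39. *foxc1a* and *tbx3a* fell at T3 against T1, both with -1.05.

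Of 23 heart muscle genes, 17 rose and 0 fell at T2 against T1, with a median log2 fold change of 2.77. Their summed level was 95.6 and 64.8 RPKM (T1), 473 and 497 (T2), 483 and 502 (T3), and 1 and 2 of them were at 0 in the T1 libraries. Most of the T1 sum was *actc1a*, with 64.5 and 44.2 RPKM (T1), 140 and 143 (T2), 93.8 and 104 (T3). *ttn.2* had 14.2 and 9.24 RPKM (T1), 90.4 and 97.0 (T2), 131 and 147 (T3). The count was 1 higher and 0 lower at T3 against T2, and 15 higher and 0 lower at T3 against T1. Several genes of this list, such as *casq2*, *tcap* and *ttn.2*, are also expressed in skeletal muscle. *tcap* had 0 reads at T1, 4.20 and 7.98 RPKM at T2 and 25.8 and 27.3 RPKM at T3, with a rise of 2.10 on the log2 scale at T3 against T2. The largest changes after it at T3 against T1 were those of *casq2* (5.71), *cmlc1* (5.53) and *vmhc* (5.03). Between consecutive stages, the calls in this list thus came mostly at T2 against T1, and that of *nppa* came at T3 against T2. The natriuretic peptide gene *nppb*, which lies beside *nppa*, had 0.444 and 0.160 RPKM (T1), 0.198 and 0.326 (T2), 1.23 and 0.747 (T3). Its log2 fold change at T3 against T2 was 0.95 (limma, adjusted p = 0.00751), short of a call.

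Among the signals that act on the heart field, more genes fell than rose at the later stages. Of 21 genes for such ligands, receptors and targets, 1 rose and 9 fell at T2 against T1, with a median log2 fold change of -1.005, and 1 rose and 12 fell at T3 against T1. Of 20 tested at T3 against T2, 0 rose and 1 fell. The largest falls at T3 against T1 in log2 fold change were those of *apela* (-3.22), which encodes the early ligand of the apelin receptor, and of the growth factor genes *bmp7a* (-2.92), *fgf8a* (-2.58) and *wnt11* (-2.24). *apln*, the later apelin ligand gene, rose with 1.62 and was the exception. *fgf8a*, which the heart field needs, was at 9.67, 1.60 and 1.20 RPKM at T1, T2 and T3.

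GATA factors also act in the gut, and the endoderm list was mixed. Of its 15 tested genes, 2 rose and 4 fell at T2 against T1, and 2 rose and 5 fell at T3 against T1, with median log2 fold changes of -0.32 and -0.76. The 13.3% that rose at T2 against T1 were close to the share of all mRNAs, and the 26.7% that fell stood beside 3.45%. At T3 against T1 33.3% fell, beside 8.76% of all mRNAs. Of 14 tested at T3 against T2, 1 rose and 1 fell. The liver and kidney factor gene *hnf1ba* fell with -2.30 and *fabp2*, a gene for a fatty acid binding protein of the intestine, with -2.07 at T3 against T1. *fabp2* was already at 226 and 258 RPKM at T1, with -0.07 at T2 against T1 and a called -2.00 at T3 against T2. The regulators of liver and pancreas *onecut1* and *prox1a* rose by 2.17 and 1.89 at T3 against T1. In which tissue the RNA of these genes lay was not tested. *sox32* and *sox17*, which define early endoderm, differed between the T1 libraries: *sox32* had 0 and 0.878 RPKM there and *sox17* 0.262 and 1.14 RPKM.

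*tbx5a* and *hand2* also act in the fin field, and *hand2* in the arches and in sympathetic neurons. Of 11 pectoral fin field genes, 3 rose and 1 fell at T2 against T1, 2 rose and 2 fell at T3 against T2, and 4 rose and 2 fell at T3 against T1. The actinodin genes *and1* and *and2*, which encode fibre proteins of the fin folds, rose at T3 against T2 by 3.45 and 4.22, while *sall4* and *prdm1a* fell with -1.49 and -1.06. Of 9 pharyngeal arch genes, 5 rose and 2 fell at T2 against T1, 1 rose and 0 fell at T3 against T2, and 5 rose and 2 fell at T3 against T1. *barx1* rose by 2.80, *dlx6a* by 2.40 and *dlx5a* by 1.85 at T3 against T1, and *msx1a* and *dlx3b* fell with -2.43 and -1.45.

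Of 7 genes of sympathetic neurons, 2 rose and 2 fell at T2 against T1, 1 rose and 0 fell at T3 against T2, and 4 rose and 2 fell at T3 against T1. Those that rose at T3 against T1 were *ascl1a* (3.12), *phox2bb* (2.62), *th* (1.20) and *phox2a* (1.09), and those that fell were *gata3* and *gata2a* (-1.53 and -1.35). Of 10 endocardium and valve genes, 5 rose and 3 fell at T2 against T1, 0 rose and 1 fell at T3 against T2, and 6 rose and 3 fell at T3 against T1. *vcanb* rose by 4.83 and *cdh5*, the endothelial cadherin gene, by 3.68 at T3 against T1, and *fn1a*, *vcana* and *has2*, which encode fibronectin, a versican and a hyaluronan synthase, fell with -2.55, -2.50 and -2.18. Of 5 smooth muscle genes, 2 rose at T2 against T1, 1 at T3 against T2 and 3 at T3 against T1, namely *myh11a* (1.81), *tagln* (1.73) and *acta2* (1.28), and 0 fell.

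**Figure D4:**
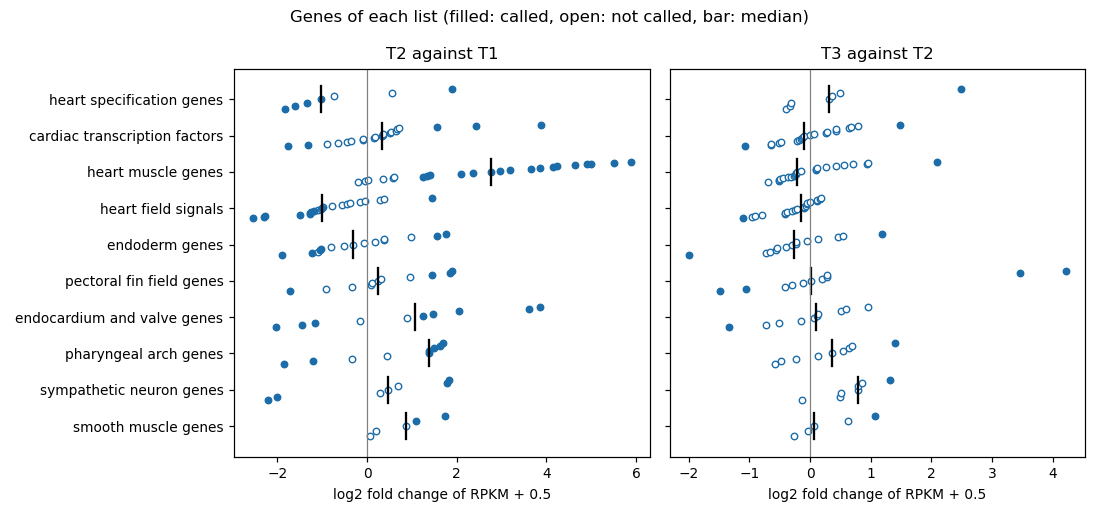
Log2 fold changes of RPKM + 0.5 (horizontal axes) at T2 against T1 (left) and T3 against T2 (right) of the 7 heart specification genes and of the genes of 9 lists (vertical axis). Each point is a gene, filled where called, and the bar is the median. The heart specification genes and the heart field signals have medians of -1.03 and -1.005 at T2 against T1, and the heart muscle genes one of 2.77.

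For each gene the mRNAs with the most similar course were sought among 16568 mRNAs of at least 1 RPKM in both libraries of a stage, by the Euclidean distance of their log2(RPKM + 0.5) values over the 6 libraries, each centred on its mean. The likest to *gata4* was *mespab* (distance 0.158), a bHLH gene of the presomitic mesoderm, with 1.74 and 1.66 RPKM (T1), 0.262 and 0.288 (T2), 0.0868 and 0.0826 (T3), and *gata5* stood at 0.338 with 15 mRNAs closer. The likest to *gata5* was *LOC103910274* (0.147), with 33.7 and 41.7 RPKM at T1, followed by *dkey-90l23.1* (0.200), which was also among the 3 likest to *gata4*. The likest to *gata6* were *dhrs3b* (0.154), *ppp1r3ca* (0.158) and *six3b* (0.182), a homeobox gene of the forebrain and eye. For *hand2* they were the splicing factor gene *srsf1b* (0.107) and *trim25l* (0.110). For *tbx5a* they included *sox18* (0.169), which acts in vessels, and *mxd1* (0.185). For *nppa* the likest were *cryba1l2* (0.294), a lens crystallin gene, with 4.80 and 4.11 RPKM at T3, and *capn3b* (0.380). For *tbx20* they were *mirlet7f* (0.190), *LOC101882460* (0.218) and *nudt9* (0.224). *mirlet7f* is a microRNA gene, counted among the mRNAs here because it is outside the lncRNA table. *hand2* and *tbx20* stood at a distance of 0.559, with 461 mRNAs closer to *hand2* and 383 closer to *tbx20*. *tbx5a* and *nppa* stood at 2.25, with 6595 mRNAs closer to *tbx5a* and 1871 closer to *nppa*. The added 0.5 compresses low levels, so *mespab* and *dkey-90l23.1*, at under 0.5 RPKM at T2 and T3, were likest to *gata4* although their RPKM were lower at T3 than at T1 by a larger factor than that of *gata4*. The ranking was computed at this pseudocount only.

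The neighbours of the genes on their chromosomes were read beside them. For mRNAs these were the nearest on each side of each gene, at any distance. For lncRNAs they were all within 100 kb, the window that the study used. Only mRNAs and lncRNAs with all exon blocks on a single chromosome were searched. No such mRNA overlapped any of the 7. Of the nearest mRNAs, *ch211-200e2.1*, 76446 bases beyond *gata5*, had 11.3 and 8.49 RPKM (T1), 4.23 and 3.59 (T2), 4.14 and 4.13 (T3). Like *gata5* it fell at T2 against T1 and at T3 against T1, with log2 fold changes of -1.23 and -1.15. At T3 against T2 it was at 0.08 (limma, adjusted p = 0.559) and *gata5* at -0.32. *tbx3a* lies 12909 bases from *tbx5a*. It was at 7.79 and 6.75 RPKM (T1), 3.99 and 3.36 (T2), 3.21 and 3.28 (T3), lower at the later stages than at T1, where *tbx5a* was higher at the later stages. *tbx3a* was called at T3 against T1 only (log2 fold change -1.05), with -0.90 at T2 against T1 and -0.15 at T3 against T2. *ddx54*, a helicase gene on the other side of *tbx5a*, fell at T3 against T1 with a log2 fold change of -1.78. No other nearest mRNA was called in any comparison, and *dkeyp-73a2.2*, 24020 bases from *gata5*, was too low to be tested in any. *fbxo8* beside *hand2* and *dpy19l1l* beside *tbx20* lay further off than 100 kb. Of all tested mRNAs, 3.45% fell at T2 against T1 and 8.76% at T3 against T1.

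Within 100 kb of the genes lay 5 lncRNA transcripts of those searched, none of which shared exon bases with them. Over the lncRNA table, 12.8% of 7979 tested transcripts were called in either direction at T2 against T1, 7.80% of 7909 at T3 against T2 and 25.8% of 7971 at T3 against T1. Of the neighbours, 1 of 4 tested was called at T2 against T1, 1 of 4 at T3 against T2, and 2 of 5 at T3 against T1. The assembled transcript TCONS_00094485 (chromosome 23, 7423484 to 7423927, 32484 bases from *gata5* on the same strand) had 10.4 and 11.5 RPKM (T1), 4.44 and 5.78 (T2), 2.11 and 1.08 (T3). Its stages did not overlap, and it fell with log2 fold changes of -1.04 at T2 against T1 (limma, adjusted p = 0.0394), -1.46 at T3 against T2 (adjusted p = 0.0329) and -2.50 at T3 against T1 (adjusted p = 0.00579). TCONS_00043869, 93711 bases from *nppa* on the opposite strand, had 2.68 and 3.92 RPKM (T1), 2.30 and 6.28 (T2), 8.32 and 9.06 (T3), and rose at T3 against T1 with a log2 fold change of 1.29 (SE 0.227, limma, adjusted p = 0.0158). The T2 libraries of this transcript lay on both sides of those of T1. TCONS_00094485 lost its call at T2 against T1 without T1 replicate 2 or either T2 library, at T3 against T2 without any single one of the 4 libraries, and at T3 against T1 without either T3 library. That of TCONS_00043869 was lost without either T3 library.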

How the data were processed

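RNA of whole wild-type AB embryos was depleted of rRNA, made into stranded libraries and sequenced as read pairs. Per the submitters' processing notes and the study's methods, the authors mapped reads to GRCz11 with STAR 2.5.3a, counted them over exons with featureCounts 1.5.1 and deposited RPKM values for genes and lncRNAs. Strandedness of the counting, and whether mates of a pair were counted apart, are not stated in the sources used. Gene table values multiplied by exon length and depth gave whole reads for 100% of values (tolerance 0.01 reads).

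log2(RPKM + 0.5) was tested per pair of stages with limma 3.58.1 (trend and robust, statmod 1.5.0, R 4.3.3) over mRNAs, defined as genes of the gene table outside the lncRNA table, and over lncRNAs apart, each with at least 0.1 RPKM in at least 2 of 4 libraries. So defined, the mRNAs include some microRNA genes. The test was tried on simulated data with the same spread at all stages, in which only mRNAs of at least 1 RPKM were changed. It thus does not cover the larger spread at T1 or lower levels. Python 3.11.15, numpy 2.4.6, pandas 2.3.3 and scipy 1.17.1 handled tables, and matplotlib 3.10.9 drew the plots. Counting intervals on ratios of reads are exact binomial at 95%, and would be too narrow if mates of a pair were counted apart. Groups came from the stage labels, and 0 columns were left without a sample.

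The 7 genes and the gene lists were chosen with earlier results of these data known. Of each list, up to 4 called genes with the largest change at T3 against T1 were named, with any called against most of its list, and of the most similar mRNAs up to 3 per gene. Other named genes, such as *nkx2.5*, *nppb* and *tbx5b*, were picked after their values were seen. Alternatives were other pseudocounts, filters, scalings and libraries in the fit, a replicate term, limma voom and unadjusted p. No sequences are printed.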

Additional observations from a re-analysis of the deposited data

How the results depend on the processing

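Of the single-gene results of the 7 genes under the alternatives, 272 kept their direction and side of the threshold, 13 lost the call, 5 gained it and 0 turned. Without single libraries, the genes called of the 7 ranged from 0 to 5 at T2 against T1, from 1 to 1 at T3 against T2 and from 4 to 5 at T3 against T1. The list genes called ranged from 0 to 68, from 12 to 17 and from 49 to 76 in the same order, and the neighbouring lncRNAs called from 0 to 1, from 0 to 1 (the 1 without T2 replicate 2 is not the reported transcript) and from 0 to 2. In such fits the lone library of a stage is assumed to vary like the other stage, and the spread at T1 was the largest. At T3 against T2 the list genes called were 14 in the reported fit, 22 with a pseudocount of 0.1 and 24 with limma voom. The neighbouring lncRNAs called were 0 at T2 against T1 with a pseudocount of 1, 2 at T3 against T2 at an unadjusted p under 0.05, and 1 at T3 against T1 with all 6 libraries in the fit. The cause of these shifts was not tested. Same-numbered libraries did not deviate together (r across 11894 mRNAs of 0.0109 for T1 and T2, -0.0518 for T2 and T3 and -0.0683 for T1 and T3). With a replicate block 5, 1 and 5 of the 7 genes, 65, 14 and 75 list genes and 1, 1 and 2 neighbouring lncRNAs were called, in the same order of comparisons. Scaling moved the split of all calls: at T2 against T1 2953 mRNAs rose and 795 fell as reported, 1976 and 2070 with median centring, and 2119 and 1422 with quantile normalization. At T3 against T1 these were 3968 and 2026, 2879 and 4177, and 3113 and 2888. At T3 against T2 933 rose and 488 fell, and 1202 and 329 with centring on features of at least 1 RPKM in all 6 libraries, which was chosen after seeing the data. The median log2 fold change of all mRNAs was -0.25 at T2 against T1 and -0.34 at T3 against T1 with median centring, against 0.08 and 0.01. At few reads, as for *nppa* and *tbx5a* at T1, the size of a change depended on the pseudocount.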

Other observations

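Other genes of the GATA family were among those of the sympathetic neuron list. *gata2a*, which acts in blood and vessel precursors, had 9.07 and 11.6 RPKM (T1), 1.86 and 1.80 (T2), 3.58 and 3.88 (T3). *gata3*, which acts in ectoderm and sympathetic neurons, had 27.0 and 41.3 RPKM (T1), 8.03 and 7.68 (T2), 11.7 and 10.8 (T3). Both fell at T2 against T1, with log2 fold changes of -2.21 for *gata2a* and -2.02 for *gata3*. At T3 against T2 they were at 0.86 (limma, adjusted p = 0.000805) and 0.49 (adjusted p = 0.00294), short of the size for a call, whereas *gata4*, *gata5* and *gata6* were between -0.39 and -0.32 there. The difference between these values was not tested.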
